A study of Mus musculus with 10 samples.

Results

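The macrophage and monocyte program is a set of 36 genes used by the mononuclear phagocytes of the colon, and its expression was followed in healthy and inflamed distal colon of the mouse. Members were chosen by name, and each took the value of a probe set that the array annotation ties to that gene alone, the one with the highest mean over all arrays where a gene had several. A value was obtained for 35 of the 36 members, out of 18193 genes with such a probe set. No probe set was paired with Spp1. The 6 resident members (Cd163, Mrc1, Lyve1, Folr2, Vsig4 and Cx3cr1), genes associated with macrophages that live in healthy tissue, were set against the other 29 members with a value.

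All 10 mice were Rag1-/- on the C57BL/6 strain and 4 to 5 months old, and each array measured the total RNA of the distal colon of 1 mouse. Such hosts make no T or B cells of their own but keep their myeloid cells. The 4 control mice had been injected at 10 weeks of age with Treg (regulatory T) cells and had non-inflamed colons. Another 6 mice had been injected at the same age with naïve T cells, and 3 of their colons were labelled severe and 3 moderate in inflammation level, with collection 2 to 3 months after transfer in every group. Inflamed and control mice thus differed in the injected cell as well as in inflammation, and no mouse without injected cells was compared. Values are log2 intensities after RMA (a background correction, a common distribution for all arrays and a summary of each probe set), so that a difference of 1 is a 2-fold change. The median of all probe sets was 5.36 to 5.4 and the lower quartile 3.82 to 3.92 on every array, the epithelial gene Epcam read 13.78 to 13.88 over the 10 colons, and Rag1, the deleted gene in every group, read 4.80 to 5.15. The number of arrays limits the precision.

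Monocytes leave the blood, enter the gut wall and mature there into macrophages. In the healthy colon this flow continuously renews a population that clears dying cells and bacteria without provoking inflammation. CSF1 and its receptor CSF1R sustain this lineage, and the factors PU.1 (Spi1), C/EBPβ (Cebpb) and c-Maf (Maf) shape its gene expression. During colitis many newly arrived monocytes keep an inflammatory state, while scavenger receptors such as CD163 and the mannose receptor mark the settled macrophages.

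Most of the program rose with inflammation, and the resident members did not rise with it. In inflamed colon 27 of the 35 members were higher than in control and 2 were lower at an adjusted p under 0.05 (limma, two-sided, Benjamini-Hochberg over all genes), while 18.5% of all genes were higher and 21.2% were lower. The median log2 difference was 1.83 over the 35 members and 0.03 over all genes. Among the 29 other members 27 rose and 0 fell, with a median of 2.41, and Maf and Lgals3 did not pass. Among the 6 resident members 0 rose by limma or the methods' t-test (1, Cx3cr1, had an unadjusted p under 0.05), Lyve1 and Folr2 fell, and the median was -0.48. Severe colon 1 stood apart in several members, and without it 27 members rose and 5 fell. Because whole colon was measured, more cells of a type and more RNA per cell cannot be told apart.

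The values of the 4 control colons and the 6 inflamed colons did not overlap in 25 members that were higher in inflamed colon and in 1 that was lower, Lyve1. Over all genes 14.6% were higher without overlap and 17.1% lower without overlap. Csf1 and Spi1 were called higher although 1 inflamed colon lay within the control range in each, and Folr2 was called lower with 5 of 6 inflamed colons below every control. Of 33 further probe sets for the members, 32 moved in the same direction as the one used. Of the 33, 20 passed in the direction of a called member and 0 passed in the opposite direction.

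**Figure D1:**
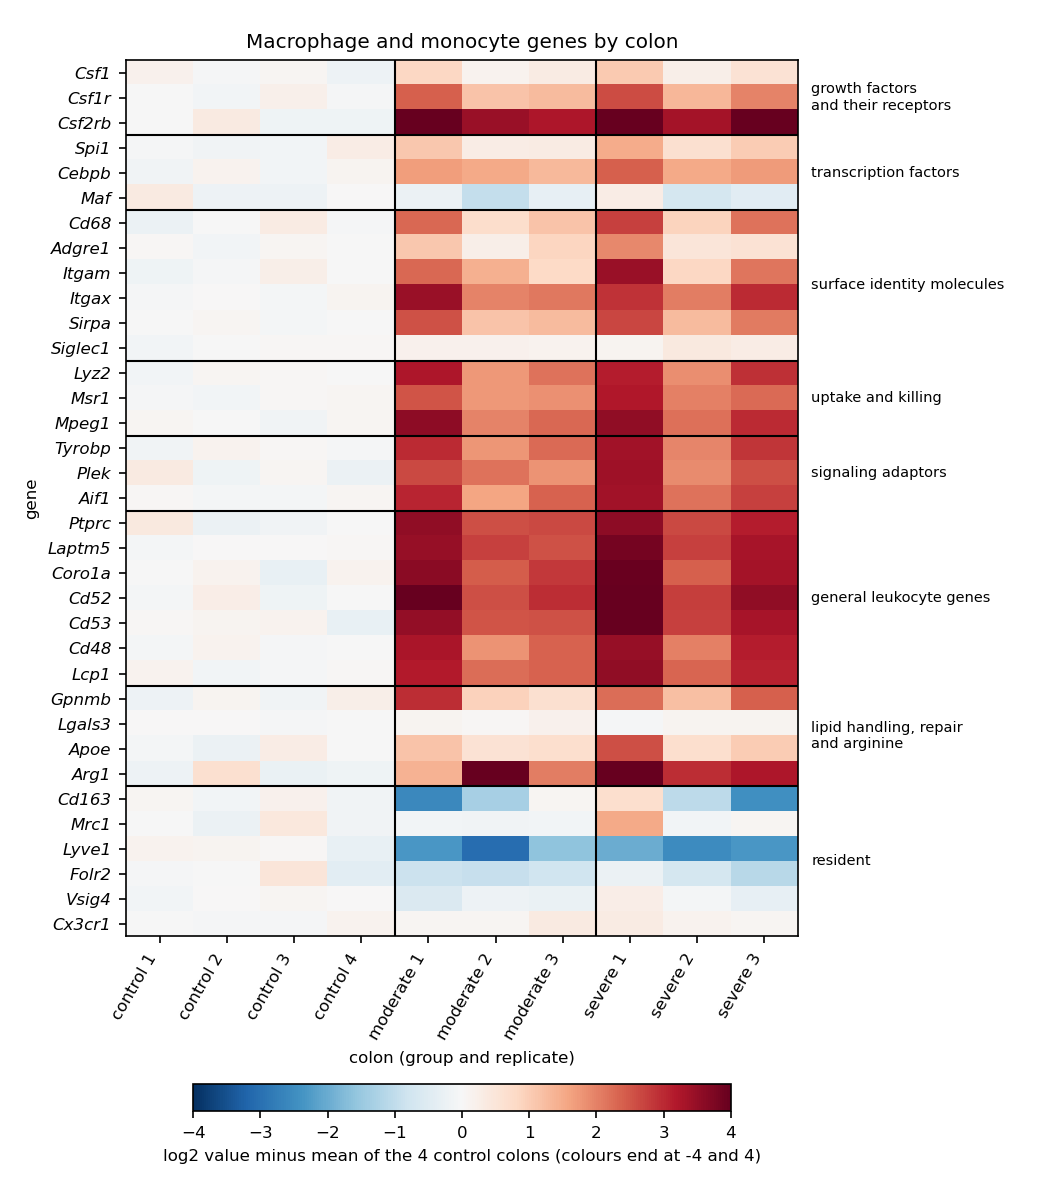
Log2 value of each of the 35 members (rows, grouped by role) in each of the 10 colons (columns), as the difference from the mean of the 4 control colons, in colours that end at -4 and 4. The 6 inflamed colons are red for most members, and the resident genes at the bottom are blue or near white, apart from Cd163 and Mrc1 in severe colon 1.

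The growth factor receptors of the lineage rose. Csf1r, the receptor for CSF1 and IL-34 on monocytes and macrophages, read 9.09, 9.0, 9.33 and 9.06 in control colons, 11.71, 10.46 and 11.09 in severe colons and 11.50, 10.26 and 10.38 in moderate colons. Every inflamed colon thus lay above every control, a rise of 1.78 ± 0.27 (log2 difference ± SE, 3.43-fold, adjusted p = 0.000322, limma). Csf2rb, the signaling chain shared by the receptors for GM-CSF, IL-3 and IL-5, had the largest difference of all 35 members. It read 5.52, 5.91, 5.36 and 5.38 in control, 10.33, 8.86 and 9.71 in severe and 9.80, 9.0 and 8.76 in moderate colons, a rise of 3.87 ± 0.28 (14.6-fold, adjusted p = 3.67e-06, limma). Its near-identical neighbour Csf2rb2 was higher by 2.94, and cross-hybridization between the pair was not tested.

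Csf1, the ligand, rose far less. Control colons read 6.64, 6.41, 6.56 and 6.27, severe colons 7.53, 6.72 and 7.03, and moderate colons 7.29, 6.62 and 6.78, with moderate colon 2 inside the control range. The difference was 0.53 ± 0.17 (1.44-fold, adjusted p = 0.0265, limma), and it no longer passed without control 2, control 4 or moderate 1, when the adjusted p was 0.0647, 0.0802 and 0.0503. The other Csf1 probe sets differed by 0.16, 0.19 and 0.29, and none passed in limma over all probe sets. Of the 10 other genes measured on the colony-stimulating factor axis 7 rose and 0 fell. Csf2rb2 and the G-CSF receptor Csf3r, a receptor of neutrophils as well, rose most, by 2.94 and 1.30. Csf2, which encodes GM-CSF, rose by 0.82 and Il34, the second ligand of CSF1R, by 0.79.

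Of the transcription factors, Spi1 and Cebpb rose and Maf did not pass. Cebpb, a factor of inflammatory gene expression in macrophages, read 8.70, 8.99, 8.75 and 8.96 in control, 11.26, 10.38 and 10.55 in severe and 10.52, 10.35 and 10.13 in moderate colons, a rise of 1.68 ± 0.18 (3.21-fold, adjusted p = 2.56e-05, limma). Spi1, which encodes the lineage factor PU.1, read 5.54, 5.46, 5.47 and 5.89 in control, 7.08, 6.24 and 6.62 in severe and 6.68, 5.88 and 5.91 in moderate colons. That was a rise of 0.81 ± 0.22 (1.75-fold, adjusted p = 0.0111, limma), with moderate colon 2 within the control range. Maf, a factor of resident macrophages that T cells also use, had a log2 difference of -0.40 ± 0.21 (adjusted p = 0.154, limma), and -0.53 with an adjusted p of 0.0231 without severe colon 1. Among 13 further myeloid factors 6 rose and 0 fell, led by Tfec, a factor of the MITF family expressed in macrophages (2.91), and Irf8, which directs monocyte and dendritic cell development (1.43).

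All 6 surface identity molecules rose without overlap, by very different amounts. Itgax, which encodes the integrin CD11c of dendritic cells and many gut macrophages, had the largest rise of the group: control colons read 5.44, 5.52, 5.41 and 5.62, severe colons 8.38, 7.56 and 8.48, and moderate colons 8.94, 7.47 and 7.61. Its difference was 2.58 ± 0.27 (5.97-fold, adjusted p = 2.22e-05, limma). Sirpa, the receptor for the "do not eat me" ligand CD47, rose by 1.83, and Siglec1, the sialoadhesin of some tissue macrophages, by 0.21 (1.16-fold, adjusted p = 0.0347, limma). The Siglec1 call was lost without control 1, control 2, control 4, severe 2 or severe 3, with adjusted p-values from 0.0507 to 0.103. The other Siglec1 probe sets differed by 0.12 and 0.14 and did not pass.

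Cd68, a glycoprotein of the macrophage lysosome, read 5.14, 5.37, 5.70 and 5.34 in control, 8.12, 6.27 and 7.57 in severe and 7.70, 6.08 and 6.52 in moderate colons, and rose by 1.66 ± 0.38 (3.16-fold, adjusted p = 0.00407, limma). Adgre1, which encodes a receptor widely used as the marker of mouse macrophages, read 6.85, 6.69, 6.90 and 6.80 in control, 8.72, 7.31 and 7.39 in severe and 7.90, 7.06 and 7.67 in moderate colons. It rose by only 0.86 ± 0.26 (1.82-fold, adjusted p = 0.0188, limma). Its call was lost without control 2, with an adjusted p of 0.0502. Itgam, the integrin chain CD11b of monocytes and neutrophils, read 3.42, 3.56, 3.83 and 3.57 in control, 7.04, 4.44 and 5.75 in severe and 5.88, 5.02 and 4.40 in moderate colons. Its rise was 1.83 ± 0.44 (3.55-fold, adjusted p = 0.00563, limma), from control values at or below the lower quartile of all probe sets.

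The purine-rich core GAGGAA, which PU.1 binds, was searched on both strands in the 250 bases before the start of each gene with a promoter in the RefSeq table (build GRCm38.p6). A window was given for 24 of the 36 members, 31 windows in all with alternative starts. The core was found in 12 of the 31 windows, or 38.7%, in 11 members, and in 23.3% of all 32851 windows. The C/EBP pattern TTGCNNAA was in 6.45% of the members' windows and 9.56% of all, and the MAF half-site pattern TGCTGA in 19.4% and 16.1%, and overlaps between patterns were not removed. Windows with at least 2 GAGGAA matches, or with one beside a C/EBP pattern, are shown because they place the letters in members that rose (Itgam and Cd68) and in resident members that did not (Mrc1 and Vsig4). Capitals mark GAGGAA, read as TTCCTC where it lies on the other strand, and in Cd68 also the C/EBP pattern; each sequence runs 5′ to 3′ on the strand of the gene.
Itgam, chr7:128062390-128062639, + strand: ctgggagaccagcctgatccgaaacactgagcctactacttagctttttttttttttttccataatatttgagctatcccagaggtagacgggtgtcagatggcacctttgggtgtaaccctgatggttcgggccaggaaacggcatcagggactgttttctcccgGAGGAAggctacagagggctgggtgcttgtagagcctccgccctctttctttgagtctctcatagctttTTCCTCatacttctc
Cd68, chr11:69666171-69666420, - strand: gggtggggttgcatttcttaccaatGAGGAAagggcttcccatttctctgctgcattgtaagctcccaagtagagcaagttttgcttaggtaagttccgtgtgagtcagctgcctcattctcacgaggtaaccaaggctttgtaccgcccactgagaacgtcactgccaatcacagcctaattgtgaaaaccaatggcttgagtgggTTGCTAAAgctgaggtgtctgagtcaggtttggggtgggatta
Mrc1, chr2:14229164-14229413, + strand: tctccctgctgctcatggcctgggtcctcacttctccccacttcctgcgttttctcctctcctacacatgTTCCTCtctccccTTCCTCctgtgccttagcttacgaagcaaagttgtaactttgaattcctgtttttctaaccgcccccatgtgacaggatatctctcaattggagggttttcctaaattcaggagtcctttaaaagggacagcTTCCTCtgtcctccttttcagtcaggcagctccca
Vsig4, chrX:96293439-96293688, - strand: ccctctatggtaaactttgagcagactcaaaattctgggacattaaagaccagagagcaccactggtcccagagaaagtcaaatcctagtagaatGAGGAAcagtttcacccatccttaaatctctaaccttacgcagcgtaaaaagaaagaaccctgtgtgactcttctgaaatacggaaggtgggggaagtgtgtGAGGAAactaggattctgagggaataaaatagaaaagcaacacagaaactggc

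The window of Mrc1 held 3 matches, and those of Itgam and Vsig4 held 2 each. At least 2 matches were thus in 3 of 31 windows of members and in 3.54% of all windows. The letters were present in genes that rose and in genes that did not. A match describes the letters only, and binding was not measured.

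Genes of uptake and killing rose together. Mpeg1, a pore-forming protein of the phagosome, had the largest rise of these 3 members: control colons read 7.65, 7.57, 7.45 and 7.68, severe colons 11.12, 9.79 and 10.56, and moderate colons 11.17, 9.57 and 9.87. The difference was 2.76 ± 0.31 (6.78-fold, adjusted p = 3.51e-05, limma). Lyz2, the lysozyme of macrophages and neutrophils, rose by 2.51, and Msr1, a scavenger receptor for modified lipoproteins, by 2.27.

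The 3 signaling members rose by nearly the same amount, from 2.41 for Plek, a substrate of protein kinase C in blood cells, to 2.54 for Aif1, the actin-binding protein IBA1. Aif1 read 5.83, 5.71, 5.70 and 5.87 in control, 9.15, 7.94 and 8.52 in severe and 8.82, 7.37 and 8.14 in moderate colons (2.54 ± 0.28, 5.83-fold, adjusted p = 3.35e-05, limma). Tyrobp, the adaptor DAP12 that carries the signal of several activating myeloid receptors, rose by 2.53. Of 17 further genes of myeloid signaling 16 rose and 0 fell, with a median of 1.08. The β-glucan receptor Clec7a (Dectin-1) rose by 4.30 and the fungal lectin receptor Clec4n (Dectin-2) by 3.58, the largest rises of that list without overlap.

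All 7 general leukocyte members rose without overlap, by 2.67 to 3.33, with a median of 3.09. Cd52, a small glycoprotein of lymphocytes and myeloid cells, read 7.36, 7.70, 7.27 and 7.43 in control, 11.50, 10.20 and 10.99 in severe and 11.52, 10.01 and 10.39 in moderate colons (3.33 ± 0.29, 10.0-fold, adjusted p = 8.78e-06, limma). Ptprc, the common leukocyte antigen CD45, read 7.81, 7.20, 7.29 and 7.42 in control, 11.02, 10.06 and 10.57 in severe and 10.99, 10.02 and 10.06 in moderate colons (3.02 ± 0.23, 8.14-fold, adjusted p = 4.02e-06, limma). Cd53, Laptm5, Coro1a, Lcp1 and Cd48 code for proteins of the leukocyte membrane, lysosome and actin cytoskeleton.

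These genes are not particular to macrophages, and markers of other leukocytes moved with them. Of 9 measured T cell genes 8 rose, and their mean per colon was 5.25 to 5.44 in control and 6.49 to 7.30 in inflamed colon, with Cd3d up by 2.48 and Cd3e by 0.54. Of 10 neutrophil genes 7 rose, and 4 without control 4, with a mean of 4.42 to 4.99 in control and 6.16 to 7.98 in inflamed colon. S100a8 and S100a9, calcium-binding proteins abundant in neutrophils and monocytes, rose by 7.66 and 6.34. In control colons S100a8 read 6.77, 4.04, 3.90 and 4.43 and S100a9 read 6.10, 4.06, 3.72 and 4.27, with control 1 the highest in both. The part of T cells and neutrophils in the rise of the members was not tested.

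Among members tied to lipid handling, repair and arginine, 3 rose and Lgals3 did not pass. Arg1, the enzyme that splits arginine and a marker of alternatively activated macrophages, read 3.60, 4.43, 3.52 and 3.62 in control, 9.88, 6.73 and 7.03 in severe and 5.18, 8.64 and 5.82 in moderate colons. Its rise was 3.42 ± 0.76 (10.7-fold, adjusted p = 0.00372, limma), and the inflamed SD of 1.76 was the widest of all members. Of its 4 control values 3 lay below the lower quartile of all probe sets, so the fold rests on a dim baseline with no detection call. The highest Arg1 values were those of severe 1 and moderate 2. Gpnmb, a glycoprotein of lipid-laden macrophages, rose by 1.72, and the lipid carrier Apoe by 1.11 (adjusted p = 0.0186), or 0.82 without severe 1, and it was not called without control 2 (adjusted p = 0.0531, limma). Lgals3 (galectin-3), which colonic epithelium also makes, read 14.11 to 14.17 in control and 14.09 to 14.30 in inflamed colon.

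**Figure D2:**
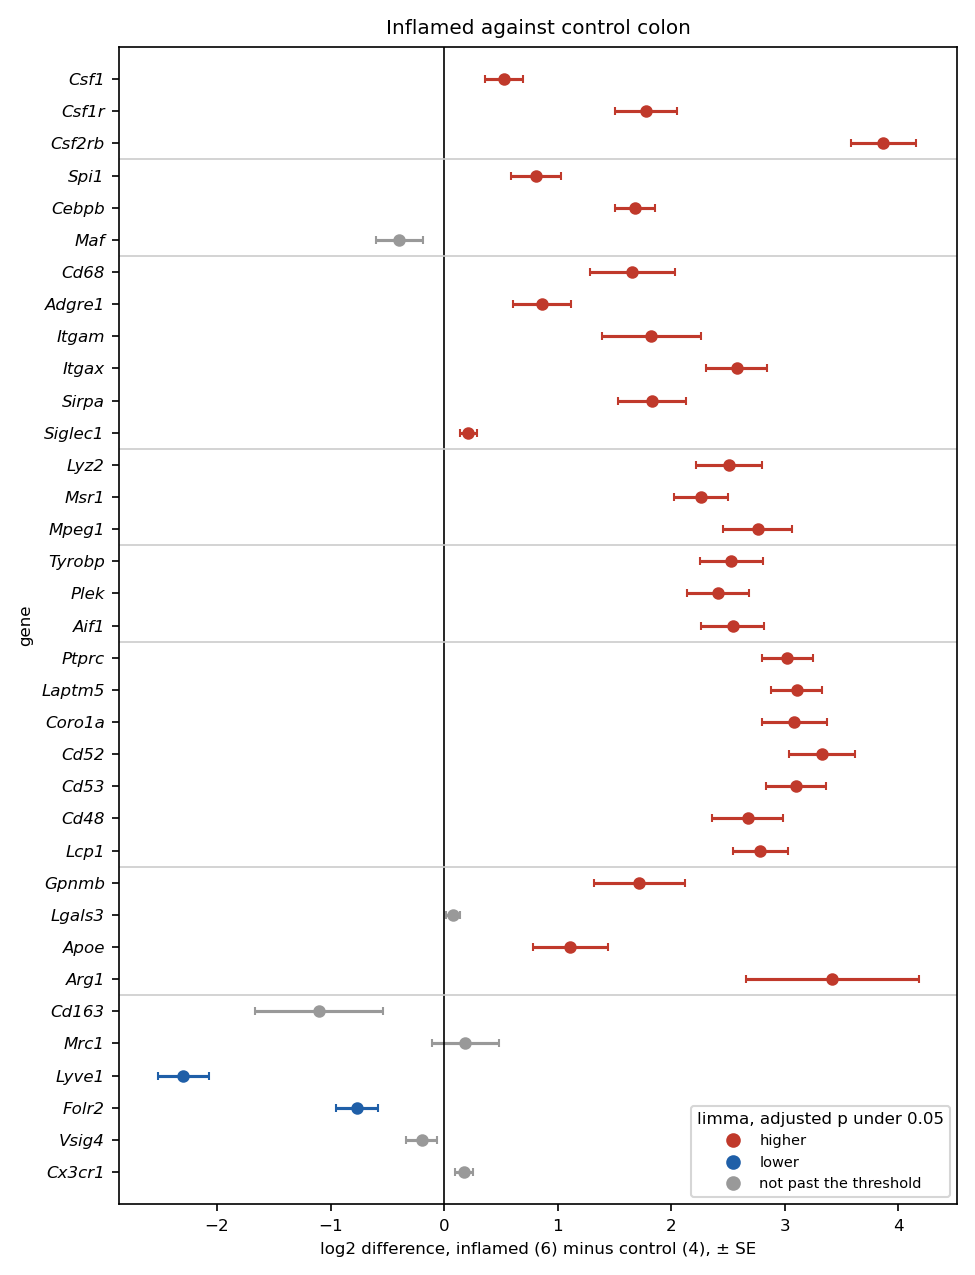
Log2 difference of 6 inflamed minus 4 control colons with its SE for each of the 35 members, in the order of the roles in the text, with red for higher, blue for lower and grey for an adjusted p of 0.05 or more in limma. The resident genes at the bottom lie at or left of 0.19, and the general leukocyte genes at 2.67 to 3.33.

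The 6 resident members did not move as one. Lyve1, a hyaluronan receptor of resident macrophages near vessels and of lymphatic endothelium, fell most. It read 9.65, 9.61, 9.54 and 9.22 in control, 7.53, 6.98 and 7.19 in severe and 7.16, 6.46 and 7.91 in moderate colons, so every inflamed colon lay below every control. The difference was -2.30 ± 0.22 (4.92-fold lower, adjusted p = 1.67e-05, limma), and it kept its direction and call without any single array, at -2.44 to -2.15.

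Lymphatic markers moved with Lyve1. Of 5 measured genes of lymphatic endothelium 3 fell, and their mean per colon was 6.80 to 7.25 in control and 5.36 to 6.15 in inflamed colon. Mmrn1 fell by 2.53, the matrix protein gene Reln by 1.95 and the VEGF-C receptor gene Flt4 by 1.43, while Prox1, the lineage factor, differed by 0.02 and Pdpn by 0.12 and did not pass. All 6 smooth muscle genes fell as well, with Acta2 down by 1.42 and Myh11 by 2.27. The part of lymphatic vessels and of the share of muscle in the Lyve1 value was not tested.

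Folr2, the folate receptor β of resident macrophages, read 6.57, 6.62, 7.13 and 6.21 in control, 6.39, 5.94 and 5.53 in severe and 5.78, 5.70 and 5.85 in moderate colons. It was lower by a log2 difference of -0.77 ± 0.18 (1.70-fold, adjusted p = 0.00567, limma), with severe colon 1 inside the control range. The lower level was called in both severities, at -0.68 in severe and -0.86 in moderate colons (adjusted p = 0.0343 and 0.0136, limma). The severe call was lost without control 1, control 2, control 3, severe 2 or severe 3, with a log2 difference of -0.90 to -0.47 over all arrays left out in turn, the smallest without severe 3.

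Cd163, the hemoglobin scavenger receptor, spread widely. Control colons read 5.86, 5.69, 5.97 and 5.67 whereas severe colons read 6.48, 4.76 and 3.35 and moderate colons 3.20, 4.48 and 5.88. Thus 4 inflamed colons lay below every control and 1, severe 1, above. Control colons had an SD of 0.15 and inflamed colons one of 1.32. The difference of -1.11 ± 0.56 did not pass (adjusted p = 0.144, limma). Without severe 1 it was -1.46 and passed (adjusted p = 0.0251).

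Mrc1, the mannose receptor CD206, read 7.21, 7.0, 7.64 and 7.08 in control and 7.13, 7.08 and 7.12 in moderate colons, and 8.73, 7.13 and 7.32 in severe colons. Only severe 1 left the control range, and the difference of 0.19 ± 0.30 (adjusted p = 0.654, limma; 95% interval -0.46 to 0.84) turned to -0.08 without it. Vsig4, a complement receptor of resident macrophages, read 3.58, 3.72, 3.78 and 3.72 in control, 3.96, 3.62 and 3.39 in severe and 3.11, 3.51 and 3.42 in moderate colons. These Vsig4 values are near or below the lower quartile of all probe sets, and its difference of -0.20 ± 0.13 (adjusted p = 0.266, limma) passed without severe 1 at -0.29 (adjusted p = 0.0396). With severe 1 left out, 5 members in place of 2 were lower, the additions being Maf, Cd163 and Vsig4. Cx3cr1, the fractalkine receptor of gut macrophages, read 5.64, 5.60, 5.61 and 5.80 in control, 5.98, 5.80 and 5.75 in severe and 5.75, 5.76 and 6.01 in moderate colons, a difference of 0.18 ± 0.08 that did not pass (adjusted p = 0.0939, limma).

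**Figure D3:**
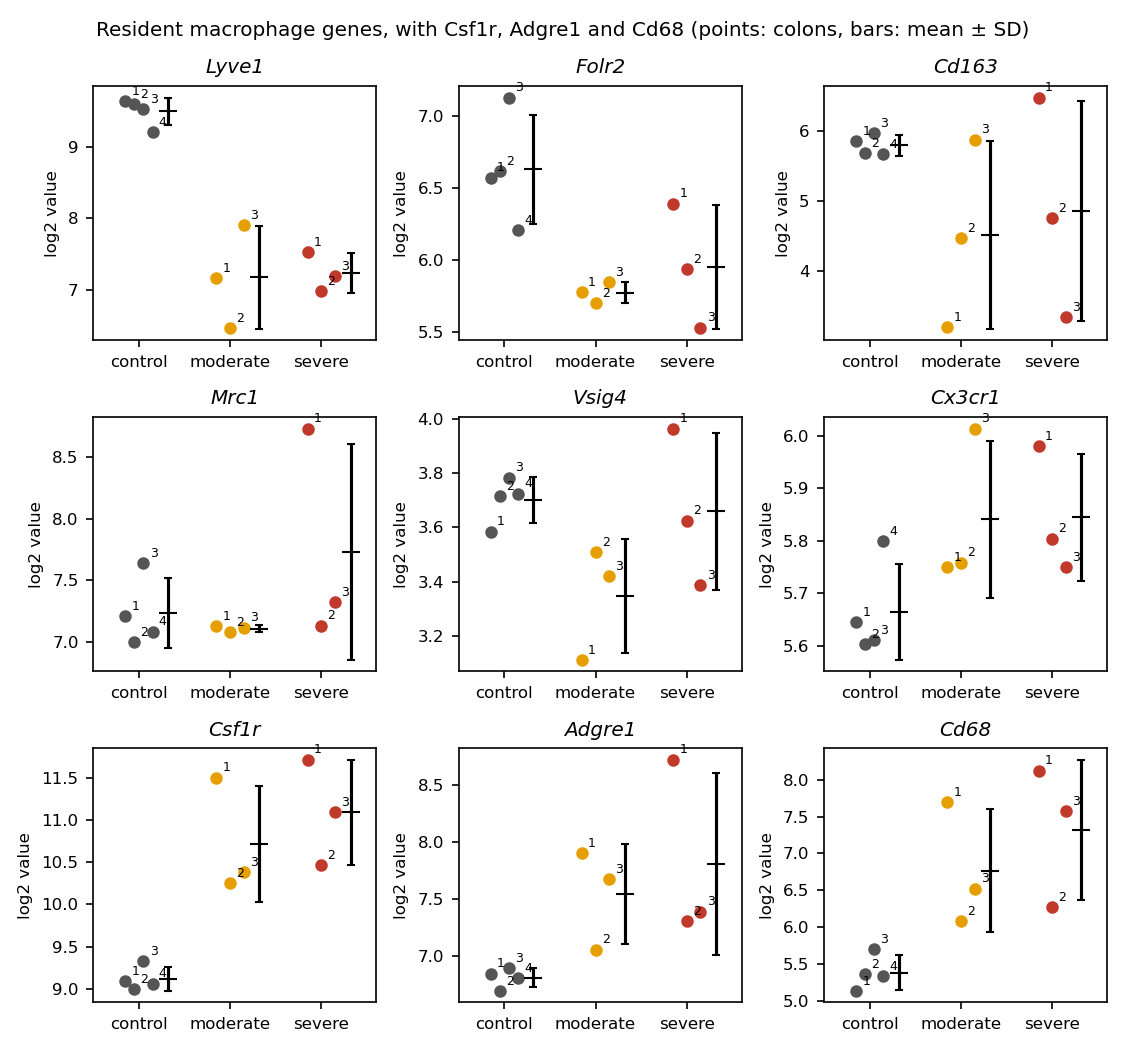
Log2 values of the 6 resident members and of Csf1r, Adgre1 and Cd68 in each colon by group, with numbers for the replicate and bars for the mean ± SD (n = 4 control, 3 moderate and 3 severe), each gene on its own axis that does not start at 0. Lyve1 lies lower in every inflamed colon, Cd163 runs from 3.20 to 6.48 in inflamed colon, and severe colon 1 is the highest of all 10 in Mrc1 and Vsig4.

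Set against Csf1r on the same array, each resident member was lower in inflamed colon without overlap between groups. The log2 difference relative to Csf1r was -4.08 for Lyve1, -2.89 for Cd163, -2.55 for Folr2, -1.98 for Vsig4, -1.60 for Cx3cr1 and -1.59 for Mrc1, with an exact permutation p of 0.00476 to 0.00952 (two-sided, not adjusted, smallest possible 0.00476). Because Csf1r itself rose, 95% of all genes were lower relative to it without overlap, and this share leaves nothing particular to the resident members. Only 0.605% of all genes were higher relative to Csf1r without overlap. Of the 34 other members 13 were higher relative to Csf1r without overlap, 12 lower and 9 overlapped. The 13 were Csf2rb, Itgax, Lyz2, Mpeg1, Tyrobp, Aif1 and the 7 general leukocyte genes, whereas Adgre1, Spi1, Csf1, Siglec1, Maf and Lgals3 were lower beside the 6 resident genes.

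Against control, severe and moderate colons gave nearly the same picture. In severe colons 27 members were higher and 2 lower (16.1% and 18.9% of all genes), and in moderate colons 22 were higher and 2 lower (13.2% and 16.7% of all genes). Both comparisons share the 4 control colons. The 5 members called in severe colons alone were Csf1, Spi1, Adgre1, Siglec1 and Apoe, whose moderate differences were 0.43, 0.56, 0.73, 0.16 and 0.80.

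Between severe and moderate colons no difference passed. The share of all genes called was 0%, by limma and by the methods' t-test alike, with 922 genes and 0 members at an unadjusted p under 0.05. The mean of the severe colons was the higher in 34 of the 35 members, or 97.1%, and in 48.6% of all genes, with a median log2 difference of 0.37 over members and -0.0046 over all genes, and the differences ran from -0.05 for Lgals3 to 1.33 for Arg1. Severe 1 was the highest inflamed colon in 21 of the 27 members that rose and weighs on these means. The median change from control of the 29 other members was 1.88 and 2.58 in severe 2 and 3, within the 1.74 to 2.65 of moderate colons. That of the 6 resident members was -0.40 and -0.71, within the moderate -0.72 to -0.20. Members that move together are not separate replicates, and the count without severe 1 was not taken. The count of 34 therefore does not show a trend with severity. The 95% interval was -0.38 to 1.13 for Csf1r, -0.60 to 0.71 for Lyve1 and -0.13 to 1.37 for Mrc1. With 3 colons against 3 these intervals are wide and hold differences of either sign.

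The labels did not order the colons as the members did. In 24 of the 27 members that rose, the 3 highest inflamed colons were severe 1, severe 3 and moderate 1, and severe 1 was the highest of all in 21. The median change of the 29 other members from the control mean was 3.21, 1.88 and 2.58 in severe colons 1 to 3 and 2.65, 1.74 and 1.84 in moderate colons 1 to 3. For the 6 resident members the corresponding medians were 0.29, -0.40 and -0.71 and then -0.72, -0.56 and -0.20. Severe 1 thus had the highest median in both sets, while moderate 1 and severe 3, high in the other members, had the lowest medians of the resident members. In Cd163 the highest inflamed colons were severe 1, moderate 3 and severe 2.

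Genes of recruited monocytes rose widely. Of 15 measured, 11 rose without overlap and 2 fell, with a median of 1.5. Chil3, the chitinase-like protein Ym1 of monocytes and neutrophils, rose by 4.60 and Hp, the hemoglobin carrier haptoglobin, by 3.55. Ccr2, the receptor that draws monocytes out of the marrow, rose from 4.86 to 5.60 in control to 7.11 to 7.81 in inflamed colon (2.36, adjusted p = 3.63e-06, limma), and its ligand Ccl2 by 2.50. The 2 that fell, Thbs1 (-0.81) and Vcan (-0.76), are matrix genes of stromal cells too. The count that fell was 0 without control 1 or control 3 and by the methods' t-test, and 4 without severe 1. It was 1 without control 2, severe 2, severe 3 or moderate 2, with the mean over probe sets, and with the replicate number as a block.

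Other genes of resident macrophages did not move as one. Of 26 measured, 10 rose and 5 fell, with a median of 0.25. Over all genes 18.5% rose and 21.2% fell, and the share of this list that fell was near the latter. Ccl8, a monocyte-attracting chemokine of gut macrophages, rose by 2.84, and the complement gene C1qb by 2.06 beside C1qa (1.76) and C1qc (1.58). The 5 that fell were Cd36, a fatty acid receptor that endothelium and fat also use (-1.55), Gas6, the bridge to dying cells (-1.21), the iron exporter Slc40a1 (-1.08), the IgG receptor Fcgrt (-0.64) and the engulfment receptor Mertk (-0.59), all without overlap. Epithelium, endothelium or stroma make several of these. Timd4, the marker of the longest-lived gut macrophages, differed by -0.07 and did not pass (adjusted p = 0.736, limma).

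Both classical and alternative activation genes were among those that rose in whole colon, and which cells expressed them was not tested. Of 17 classical genes 14 rose without overlap and 0 fell, with a median of 1.80. Socs3, the inhibitor of IL-6 signaling (4.05), and Cybb, the catalytic chain of the phagocyte oxidase (4.00), led them. Socs3 read 7.40, 7.26, 6.86 and 9.14 in control colons and 10.53 to 12.25 in inflamed colon. Il12a, Il12b and Il23a did not pass, with control means at or below the lower quartile of all probe sets. Of 15 alternative genes 8 rose and 1 fell, with a median of 0.46. With dim genes left out 5 rose. Chil3 and the transglutaminase Tgm2 rose most. Retnla, the resistin-like protein of alternatively activated macrophages, fell by 1.24 on the log2 scale. The count that fell was 0 without control 3, by the methods' t-test and in severe against control, and 2 with the mean over probe sets.

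Of 19 lipid-associated and lysosomal genes 6 rose and 3 fell, where 18.5% of all genes rose and 21.2% fell. Mmp12, the macrophage elastase, rose by 4.56 and the fatty acid binding protein Fabp5 by 1.69, while Ctsl, a lysosomal protease, fell by 0.69. Without control 2 only 1 gene of this list fell, and with array weights 5 fell.

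Of 7 dendritic cell genes 3 rose without overlap: Itgae, an integrin of gut T cells as well, by 2.14, Batf3 by 0.86 and Ccr7 by 0.47. Xcr1, the receptor of cross-presenting cells, was at 0.17 and did not pass. Of 5 B cell genes 1 rose, Ms4a1 by 0.29, and of 7 mast cell and eosinophil genes 2 rose, Cpa3 by 0.64 and Fcer1a by 0.62. The B cell count was 0 without control 1, control 2, any severe colon, moderate 1 or moderate 2, and the mast cell and eosinophil count was 1 without control 1, control 3, control 4, severe 3, moderate 2 or moderate 3. Among 5 blood endothelial genes 4 fell (2 without control 1, control 3, severe 2 or severe 3), with Pecam1 at -0.56 and Cdh5 at -0.37, the latter not passed. Of 6 fibroblast genes 3 fell, with Col1a1 at 0.41 and Col1a2 at -0.34 not passed, and all 3 enteric neuron and glia genes fell, Elavl4 by 1.16 and Tubb3 by 0.49. Epithelial genes kept a mean of 12.72 to 12.81 in control and 12.74 to 13.01 in inflamed colon, with Cdh1 at 0.11 and not passed, and 1 of 7 rose, Krt19 by 0.20. That count was 2 without severe 1 and 0 without control 1, control 2, control 4, severe 2, severe 3, moderate 1 or moderate 3. Over all genes 18.5% rose and 21.2% fell, and the shares of B cell and epithelial genes that rose were near the former. The part of these cell types in the members' values was not tested.

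**Figure D4:**
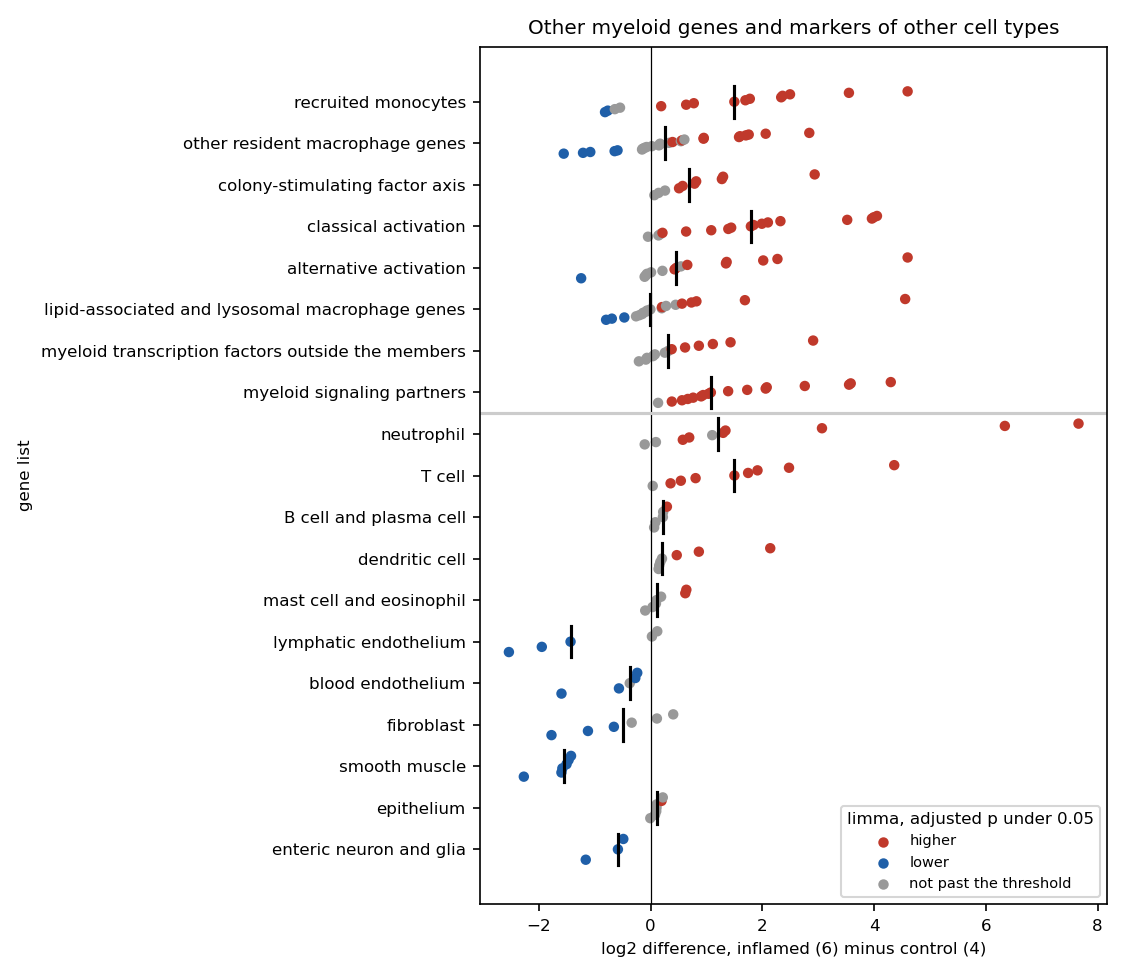
Log2 difference of 6 inflamed minus 4 control colons for every measured gene of the other myeloid lists (above the grey line) and of markers of other cell types (below it), with a black bar at the median of each list and colours for the limma call at an adjusted p under 0.05. Myeloid signaling and classical activation genes lie mostly right of 0, and smooth muscle genes lie at -1.42 or lower.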

How the data were processed

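Total RNA of distal colon was labelled by the Affymetrix 3′ IVT assay, 1 array per mouse. The authors made the deposited log2 values with Expression Console and RMA, per the labels; their versions are not given in the sources used here. Detection calls, images and scan dates were not analysed, so no scan batch was examined. RMA gives arrays 1 distribution, which hides a change in total RNA. The tests used limma (version 3.58.1, under R version 4.3.3) with moderated variances, Benjamini-Hochberg adjustment over 18193 genes and a threshold of 0.05, in 2 groups for inflamed against control and 3 groups for severity, after a test on simulated data. Values relative to Csf1r were tested by exact permutation over arrays in place of limma, since each gene then carries the error of Csf1r; this was chosen after seeing the data. Members and lists were chosen with earlier results of these data known. Named are all members, the 2 largest rises and falls without overlap per list, the first 2 markers per cell type, and a few more chosen after their values were seen. Replicates are mice by the labels, with no litter or cage given. Symbols come from the platform annotation, with gene identifiers of 34754 of 34945 probe sets found in RefSeq. A further probe set annotated to both Csf2rb and Csf2rb2 was left out. Figures used matplotlib 3.10.9 in Python 3.11.15. Alternatives varied the probe set, filter, scaling, variance model, weights, test, design, block and arrays.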

Additional observations from a re-analysis of the deposited data

Results flagged for a closer look

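In 4 of 70 groups of a member's values, 1 colon stood apart from the rest of its group by Dixon's test at the 95% level, and chance alone flags about 1 in 20 such groups. Severe 1 stood apart among the 6 inflamed colons in Mrc1 (8.73, nearest 7.32), Apoe (11.26, nearest 9.80) and Cebpb (11.26, nearest 10.55), each time as the highest value. Control 2 stood apart among the controls in Arg1 (4.43, nearest 3.62).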

How the results depend on the processing

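The count of members higher in inflamed colon was 23 to 27 with 1 array left out, and the count lower 2 to 5, the highest without severe 1. For severe colons the corresponding ranges were 24 to 27 and 1 to 2, with 1 lower also when only the severe and control arrays entered the fit, and for moderate colons 18 to 24 and 2 to 3. Between severe and moderate colons 0 members passed under any setting run. Relative to Csf1r, Adgre1 or Ptprc, each resident member stayed lower in inflamed colon. These reference genes themselves rose, by 1.78, 0.86 and 3.02, so a gene that does not change is lower relative to each. The share of all genes lower relative to Adgre1 or Ptprc was not counted, and nothing particular to the resident members is shown. The variance model, weights, block, dim filter and test of all probe sets were not run for these relative values. Over single members and all settings the direction turned in 4 cases: Mrc1 in inflamed and in severe colons without severe 1, Mrc1 in moderate colons without control 3, and Vsig4 in severe colons without severe 3. With 1 array left out, the log2 difference of Mrc1 was -0.0762 to 0.323 in inflamed, -0.00489 to 0.796 in severe and -0.202 to 0.0119 in moderate colons, and that of Vsig4 was -0.196 to 0.0924 in severe colons. In the comparison of inflamed with control 15 values lost their call and 3 gained one, in Csf1, Adgre1, Siglec1 and Apoe and in Maf, Cd163 and Vsig4. By the methods' t-test with Benjamini-Hochberg adjustment, Csf1, Adgre1 and Apoe were at 0.0639, 0.0555 and 0.0566; the cause was not tested. With the replicate number as a block 26 members were higher and 2 lower in inflamed colon, 26 and 2 in severe and 20 and 3 in moderate colons. The labels do not say what the numbers mean. Of 9 same-numbered pairs 2 had deviations that correlated over 0.1 (-0.08 to 0.29). These were severe 1 with moderate 1 (0.29) and severe 2 with moderate 2 (0.25), the highest of all pairs between groups. Whether a number marks a shared factor was not tested. Centring and repeated quantile normalization left the median of all genes at 0.04 and 0.03. The neutrophil count of genes that rose was 4 with the block. The B cell count was 0 with the block, repeated quantile normalization, the mean over probe sets, all probe sets tested, dim genes left out, the methods' t-test and a fit with severe and moderate as separate groups. The mast cell and eosinophil count was 0 with dim genes left out and 1 with repeated quantile normalization or the methods' t-test. The dendritic cell count was 5 with array weights. The epithelial count was 0 with the block or with separate severe and moderate groups and 2 with array weights, repeated quantile normalization, the trended and robust variance model or the methods' t-test. The count of blood endothelial genes that fell was 1 with dim genes left out. Control means at or below the lower quartile of all probe sets, without detection calls, limit what can be seen in Vsig4, Timd4, Prox1, Xcr1, Il12a, Il12b and Il23a. Such control means also make the sizes of the rises in Itgam, Arg1, Chil3, Mmp12, Tfec, Cpa3 and Fcer1a uncertain.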
